A study of Mus musculus with 23 samples.

Results

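Complement is a cascade of plasma and tissue proteins that tags cells and debris for removal. In the classical pathway, C1q binds immune complexes or dying cells, C1r, a protease that travels with it, activates the protease C1s, and C1s cleaves C4 and C2 to build an enzyme that cleaves C3. The C1 inhibitor (*Serping1*) blocks C1r and C1s, and factor I (*Cfi*) cuts and inactivates the C3 and C4 fragments already deposited. Most circulating complement is made by hepatocytes, whereas macrophages are the main source of C1q in tissues and fibroblasts make C1r, C1s, C3 and the C1 inhibitor locally.

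The genes described here are 9 of the 18512 gene symbols measured, chosen by name: the C1q subunits *C1qa*, *C1qb* and *C1qc*, the C1 proteases *C1ra* and *C1s1*, the inhibitor *Serping1*, the central components *C3* and *C4b*, and *Cfi*. They were followed in RNA-seq libraries from the head of the pancreas of 23 C57BL/6 mice, which began the study at an age of 6 to 8 weeks. The groups were baseline (non-injured; 4 females and 4 males), day 7 after caerulein hyperstimulation (4 females and 4 males) and day 14 (3 females and 4 males). Caerulein, a cholecystokinin analogue that causes pancreatitis in mice, had been injected at 50 µg/kg 8 times a day for 2 days, and the baseline mice were uninjured and carry no label of a vehicle injection. Each library was 1 mouse, with 7059890 to 9567446 counts in total. The deposited unit was the count of fragments per gene. A normalized count below is that count scaled by the TMM factors of edgeR to the mean library, and a gene was called (a DEG) where edgeR's quasi-likelihood test gave an adjusted p no higher than 0.05 and the change was 1.5-fold or more.

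The libraries came from unsorted tissue, so for every gene below, more cells of a type and more RNA per cell cannot be told apart. The summed normalized count of 8 acinar markers was 1702317 to 4331706 in each mouse. These encode digestive enzymes and, for *Sycn*, the zymogen granule protein syncollin. A pair of day 14 libraries also had high hepatocyte markers. The summed normalized count of 9 such markers was 5263 in day 14 mouse 19 and 404 in day 14 mouse 21, against 6.11 to 25.3 in the other mice. The tissue from which these transcripts came was not tested. Libraries of 4 mice (baseline mouse 5, day 7 mice 10 and 15, day 14 mouse 21) had summed B and T lymphocyte markers above 500. For the 9 genes, calls and signs in the time point comparisons that changed without these libraries are given with and without them.

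*C1qa*, *C1qc* and *C1qb* lie next to each other on the reverse strand of chromosome 4 (GRCm38, GENCODE vM21). *C1qa* spans 136895917 to 136898803, *C1qc* 136889804 to 136893065 and *C1qb* 136880129 to 136886187, with 2851 bp between the first pair and 3616 bp between the second. *C1ra* (chromosome 6, 124512405 to 124523443, forward) and *C1s1* (124530345 to 124542359, reverse) are also neighbours, 6901 bp apart. *Serping1* is on chromosome 2 (84765387 to 84775444), *Cfi* on chromosome 3 (129835884 to 129875332), and both *C3* (57203970 to 57228136) and *C4b* (34728380 to 34743882) are on chromosome 17. Of the 75-base windows of their transcripts, 100% were unique to the gene for *C1qa*, *C1qb*, *C1qc*, *Serping1*, *C3* and *Cfi*. The unique share was 57.6% for *C1ra*, 87.0% for *C1s1* and 77.3% for *C4b*, which share sequence with *C1rb*, *C1s2* and *C4a*. *C1ra* also shares sequence with Gm18840, which was not analysed here. The other copies had at most 2 counts (*C1rb*), 3 counts (*C1s2*) and 5 counts (*C4a*) in any mouse. Fragments counted only where uniquely mapped may understate these 3 genes. An annotated antisense gene, Gm16567, overlaps exons of *C1s1* and was not analysed here.

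The sequences before the start sites are shown as a description, and their part in the values below was not tested. RefSeq promoters (GRCm38.p6) were matched for 5 of the 9 genes (*C1qb*, *C1qc*, *C1ra*, *C1s1* and *C3*). In the 250 bases before the start site, 4 motifs were searched on both strands: the ETS-family (PU.1) core GAGGAAG, the core of the interferon-stimulated response element, the STAT palindrome TTCNNNGAA and the C/EBP motif TTGCNNAA. No matches overlapped each other. The bases outside the annotated gene are printed 5′ to 3′ for *C1qc* (chr4:136893066-136893164, reverse strand), *C1qb* (chr4:136886201-136886450, reverse strand), *C1s1* (chr6:124542360-124542609, reverse strand) and *C3* (chr17:57228137-57228386, reverse strand), with motif matches in capitals.
C1qc: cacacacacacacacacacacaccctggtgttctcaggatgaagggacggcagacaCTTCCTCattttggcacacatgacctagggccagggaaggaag
C1qb: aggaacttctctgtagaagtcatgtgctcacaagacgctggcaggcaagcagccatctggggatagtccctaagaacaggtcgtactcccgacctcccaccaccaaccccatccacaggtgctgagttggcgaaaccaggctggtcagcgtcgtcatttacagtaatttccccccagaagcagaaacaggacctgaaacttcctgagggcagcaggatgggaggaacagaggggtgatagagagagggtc
C1s1: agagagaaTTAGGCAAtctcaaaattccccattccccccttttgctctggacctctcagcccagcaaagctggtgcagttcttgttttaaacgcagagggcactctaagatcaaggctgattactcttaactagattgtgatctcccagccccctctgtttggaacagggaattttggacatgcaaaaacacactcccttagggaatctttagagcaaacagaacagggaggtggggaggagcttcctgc
C3: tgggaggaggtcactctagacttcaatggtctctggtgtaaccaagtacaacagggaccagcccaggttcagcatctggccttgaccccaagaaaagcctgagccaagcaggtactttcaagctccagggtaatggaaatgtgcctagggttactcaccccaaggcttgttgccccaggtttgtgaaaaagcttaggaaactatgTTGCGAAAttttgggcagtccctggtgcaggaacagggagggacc
*C1qc* held the ETS core, on the opposite strand, 194 to 188 bases before its start. That start is the RefSeq one, which lies inside the annotated gene and beyond the end of the printed bases. That core was found in 10.6% of the 32851 RefSeq promoters of this length. *C1s1* held the C/EBP motif on the opposite strand, 242 to 235 bases before its start, and *C3* held it on the printed strand, 45 to 38 bases before its start. That motif was found on either strand in 9.56% of promoters. None of the 4 motifs was found in the windows of *C1qb* and *C1ra*. The interferon element (2.98% of promoters) and the STAT palindrome (7.02%) were found in none of the 5 genes, and a second start site of *C1s1* had no match. A match is a description of the letters only.

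To find which genes of the cascade differed between the recovering and the non-injured pancreas, day 7 was compared with baseline. All C1q subunits, both C1 proteases, the C1 inhibitor and *Cfi* rose, that is 7 of the 9 genes, where 3.82% of the 12195 genes tested were called higher. The median log2 fold change of the 9 genes was 0.84, against 0.022 over all genes tested. *C3* and *C4b* did not pass the test. The 9 genes were chosen with earlier results of these data known. The paper had listed the C1q subunits, *C1ra*, *C1s1* and *Serping1* among its day 7 DEGs. *Cfi* passed the filter on low counts through the day 7 group. The share called and the median therefore describe the 9 genes and are no test of complement as a set.

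*C1qa* encodes the A chain of C1q. Its normalized counts were 57.5 to 156 at baseline (median 94.2), 143 to 288 at day 7 (median 196) and 69.2 to 221 at day 14 (median 105). In 7 of 8 day 7 mice the value was above that of every baseline mouse. The mean was 99.8 ± 30.3 (SD, n = 8) at baseline and 209 ± 56.8 (n = 8) at day 7, a log2 fold change of 1.05 (SE 0.24, edgeR adjusted p = 0.0040). The standard errors of log2 fold changes here and below were derived from the test.

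*C1qb*, the B chain, had normalized counts of 25.3 to 109 at baseline (median 47.8), 64.8 to 160 at day 7 (median 113) and 47.8 to 90.6 at day 14 (median 69.0). The time points overlapped, with 5 of 8 day 7 mice above every baseline mouse. Its log2 fold change at day 7 was 0.91 (SE 0.28, edgeR adjusted p = 0.0268). This call was near the threshold: it was lost when baseline mice 2, 6, 7 or 8 or day 7 mice 10, 14 or 15 were left out 1 at a time, with edgeR adjusted p from 0.0531 to 0.0582 and log2 fold changes of 0.81 to 0.86.

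*C1qc*, the C chain, had normalized counts of 34.7 to 122 at baseline (median 39.7), 68.7 to 194 at day 7 (median 143) and 48.9 to 96.2 at day 14 (median 69.1). At baseline, mice 3, 4 and 5 were at 80.8, 106 and 122 and the other mice were at 40.0 or less, so the baseline group was itself split. Mice 4 and 5 were also the highest baseline mice for *C1qb*. The log2 fold change of *C1qc* at day 7 was 1.05 (SE 0.28, edgeR adjusted p = 0.0126), with 5 of 8 mice above every baseline mouse.

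*C1ra* encodes the protease C1r, which cleaves C1s. It ranged from 30.2 to 80.4 normalized counts at baseline (median 46.5), 56.1 to 132 at day 7 (median 97.1) and 48.9 to 81.3 at day 14 (median 55.0). It rose at day 7 by a log2 fold change of 0.84 (SE 0.19, edgeR adjusted p = 0.0034).

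*C1s1* encodes C1s, the protease that cleaves C4 and C2. It ranged from 84.7 to 251 normalized counts at baseline (median 162), 193 to 359 at day 7 (median 278) and 171 to 260 at day 14 (median 198). Its log2 fold change at day 7 was 0.73 (SE 0.17, edgeR adjusted p = 0.0055).

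*Serping1*, the inhibitor of both proteases, ranged from 69.6 to 176 normalized counts at baseline (median 113), 134 to 281 at day 7 (median 210) and 111 to 214 at day 14 (median 139). Its log2 fold change at day 7 was 0.76 (SE 0.19, edgeR adjusted p = 0.0070). For each of *C1ra*, *C1s1* and *Serping1*, 5 of 8 day 7 mice were above every baseline mouse and all 8 were above the baseline median. The log2 ratio of *Serping1* to *C1s1* within a mouse was -0.46 ± 0.17 (SD, n = 8) at baseline, -0.45 ± 0.18 (n = 8) at day 7 and -0.52 ± 0.19 (n = 7) at day 14.

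**Figure D1:**
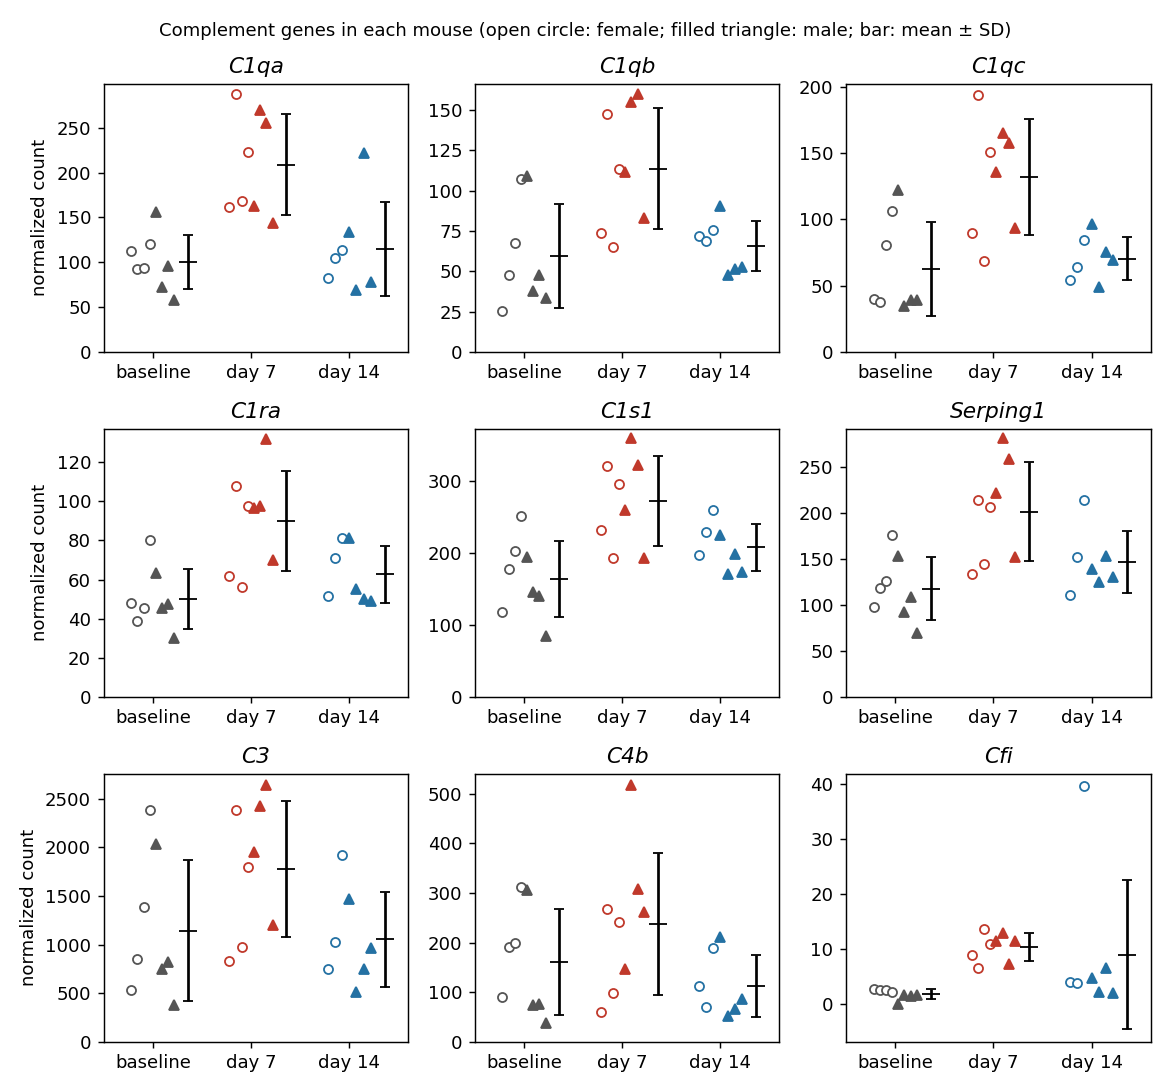
Normalized count (y axis) of each of the 9 genes in every mouse at baseline, day 7 and day 14, with females as open circles, males as filled triangles and the mean ± SD as a bar beside each group. For *Cfi* all 8 day 7 mice sit above every baseline mouse, and 1 day 14 mouse stands at 39.7.

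*C3* is the component on which all pathways converge. Its normalized counts were 377 to 2381 at baseline (median 840), 830 to 2648 at day 7 (median 1876) and 507 to 1927 at day 14 (median 964). The groups overlapped, with 3 of 8 day 7 mice above every baseline mouse and 7 of 8 above the baseline median. The means of 1142 ± 726 (SD, n = 8) and 1777 ± 704 (n = 8) gave a log2 fold change of 0.65 (SE 0.38, edgeR adjusted p = 0.253), a difference within the spread between mice.

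*C4b*, which encodes the C4 that C1s cleaves, had 37.8 to 311 normalized counts at baseline (median 140), 59.8 to 517 at day 7 (median 252) and 51.9 to 211 at day 14 (median 85.4). A single day 7 mouse was above every baseline mouse. The log2 fold change at day 7 was 0.53 (SE 0.46, edgeR adjusted p = 0.453). The log2 ratio of *C3* to *C4b* was 2.90 ± 0.44 (SD, n = 8) at baseline and 3.05 ± 0.60 (n = 8) at day 7.

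*Cfi* was the scarcest of the genes. Baseline mice had 0 to 2 counts, day 7 mice 9 to 17 counts and day 14 mice 2 to 43 counts. As normalized counts these were 0 to 2.67 (median 1.83), 6.51 to 13.5 (median 11.1) and 1.92 to 39.7 (median 3.90). Every day 7 mouse (8 of 8) exceeded every baseline mouse, which held for 1.16% of the genes tested. Over the group, 97 counts at day 7 and 11 counts at baseline gave a ratio of 5.78 after scaling (95% exact interval 3.09 to 12.0, counting error only). The fitted log2 fold change was 2.57 (SE 0.57, edgeR adjusted p = 0.0024), and at such counts it depends on the prior count of the fit. *Cfi* passed the filter on low counts through the day 7 group, and it was not tested where at least 10 counts in every mouse were required. The separation of day 7 from baseline is therefore a description and no separate support for the difference. With no filter *Cfi* was still called. The summed normalized count of hepatocyte markers was 7.01 to 20.0 at baseline (median 12.3) and 14.3 to 25.3 at day 7 (median 20.1), and its part in the day 7 value of *Cfi* was not tested.

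**Figure D2:**
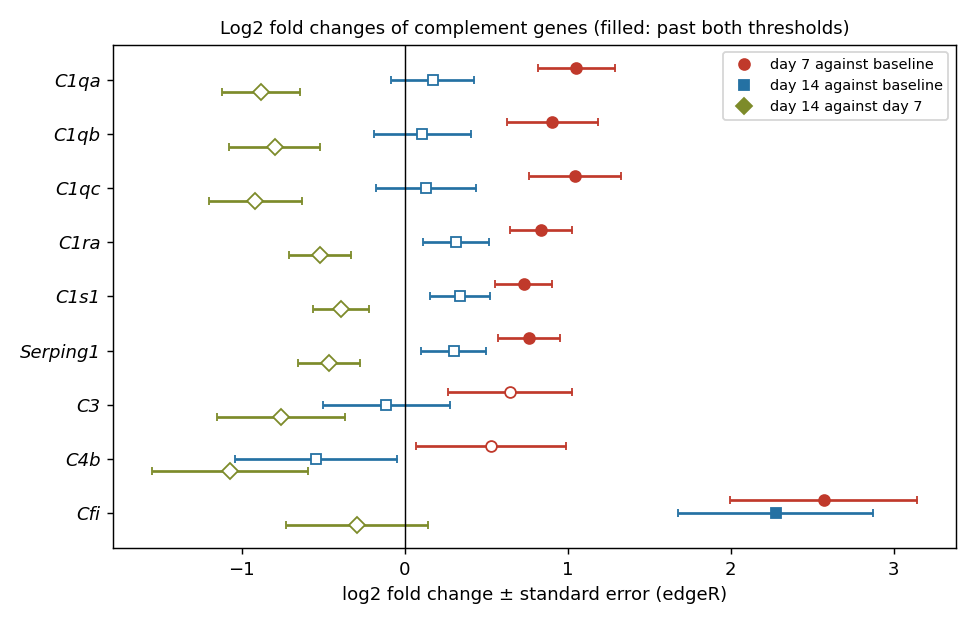
Log2 fold change (x axis, with the standard error derived from the edgeR test) of the 9 genes in the 3 comparisons of time points. Filled symbols passed both thresholds: 7 genes at day 7 and *Cfi* at day 14 against baseline, whereas all 9 values for day 14 against day 7 lie below 0 and are open.

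Marker genes of other cells moved in the same comparison. Of 12 macrophage markers, 7 rose at day 7 and all 12 had a log2 fold change above 0 (median 0.82). *Lyz2* (lysozyme, log2 fold change 1.12, edgeR adjusted p = 0.0285) and *Mrc1* (the mannose receptor, 0.73, edgeR adjusted p = 0.0026) were the most abundant of those called. Baseline mice had summed macrophage markers of 405 to 1566 normalized counts, day 7 mice of 923 to 2270 and day 14 mice of 712 to 1344. Of 10 fibroblast markers, 9 rose, with a median of 0.86, and *Col3a1* (a fibrillar collagen chain) rose by 1.10 (edgeR adjusted p = 1.5e-04). Their sums ranged from 3250 to 6325 in baseline mice, from 6088 to 11186 in day 7 mice and from 5154 to 7499 in day 14 mice. The part of these cells in the rise of the complement genes was not tested.

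The other lists at day 7 ran in several directions. Acinar markers were lower, with 6 of 8 called and a median of -0.80. Islet markers had 3 of 6 called higher (median 1.002) and ductal markers 2 of 6 (median 0.033). No marker was called among 6 mesothelial (median 0.0081), 6 endothelial (median -0.23), 5 adipocyte (median 0.66) and 5 lymphocyte genes tested (median 1.18), and no neutrophil marker had enough counts to be tested in this comparison. Without the 4 lymphocyte-rich libraries 7 of the 9 complement genes were again called at day 7, and so were 7 without the 2 libraries with hepatocyte markers.

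To find whether the differences were still present at day 14, that time point was compared with baseline. Only *Cfi* was called, where 0.697% of all genes tested were called higher, and the median log2 fold change of the 9 genes was 0.17. *C1qa* was at 0.17 (SE 0.26), *C1qb* at 0.11 (SE 0.30) and *C1qc* at 0.13 (SE 0.31). *C1ra* was at 0.32 (SE 0.20), *C1s1* at 0.34 (SE 0.18) and *Serping1* at 0.30 (SE 0.20). All 7 day 14 mice were above the baseline median for *C1qb*, *C1qc*, *C1ra* and *C1s1*. The share of all genes for which this held is not given here, and none of these genes was called. *C3* was at -0.11 (SE 0.39) and *C4b* at -0.55 (SE 0.50), and the sign of *C3* changed under total count scaling (0.059). In these 8 genes the smallest edgeR adjusted p was 0.448, for *C1s1*. No macrophage marker was called at day 14 against baseline, and 4 of 10 fibroblast markers were.

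The *Cfi* call at day 14 (log2 fold change 2.28, SE 0.60, edgeR adjusted p = 0.0485) turned on mouse 19, 1 of the 2 mice with high hepatocyte markers. It had 43 counts of *Cfi*, and the other 6 day 14 mice had 2 to 6. Without mouse 19 the log2 fold change was 1.08 and edgeR's adjusted p was 0.374, and without both mice it was 1.002 with an adjusted p of 0.475. The call was also lost without any 1 of the baseline mice, day 7 mouse 15 or day 14 mouse 21 or 23 (edgeR adjusted p from 0.0559 to 0.0914). As group sums without mouse 19, 23 counts against 11 at baseline gave a ratio of 2.15 (95% exact interval 1.01 to 4.88, counting error only). In mouse 19 all 9 hepatocyte markers had counts, and the part of their source in the day 14 value of *Cfi* was not tested.

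**Figure D3:**
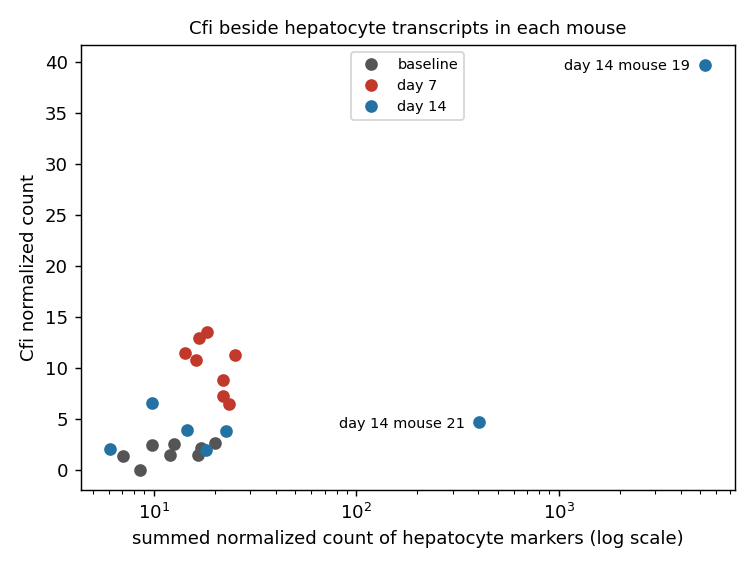
*Cfi* normalized count (y axis) against the summed normalized count of hepatocyte markers (x axis, log scale), with 1 point for each of the 23 mice coloured by time point. Day 14 mouse 19 is highest on both axes, at 5263 and 39.7, and the day 7 mice lie above the baseline mice at hepatocyte sums of 14.3 to 25.3.

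Day 14 was then compared with day 7. All 9 genes had a log2 fold change below 0, with a median of -0.76 against -0.015 over all genes tested, of which 53.7% were below 0. None was called by edgeR, where 0.172% of all genes tested were called lower. At an unadjusted p of 0.05, 7 of the 9 passed, as did 14.1% of all genes. DESeq2 called 2 (*C1qa* and *C1qc*), and total count scaling, which put the median of all genes at -0.26, called 6. *C1qa* was nearest to the threshold, at -0.88 (SE 0.24, edgeR adjusted p = 0.0694), and 6 of 7 day 14 mice were below every day 7 mouse. The exception was mouse 23, at 221 normalized counts, and without it *C1qa* passed at -1.11 (edgeR adjusted p = 0.0116). *C1qb* was at -0.80 (SE 0.28), *C1qc* at -0.92 (SE 0.28), *C1ra* at -0.52 (SE 0.19), *C1s1* at -0.39 (SE 0.17) and *Serping1* at -0.46 (SE 0.19). *C3* was at -0.76 (SE 0.39) and *C4b* at -1.07 (SE 0.48). *Cfi* was at -0.29 (SE 0.44), and without mouse 19 it was called lower, at -1.39 (edgeR adjusted p = 0.0321). The 3 comparisons share mice, so they are not independent of each other.

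Levels of different genes can be compared only per length of transcript. As mean CPM (TMM-scaled) per kilobase of exon, *C3* was highest at baseline (25.6), day 7 (39.8) and day 14 (23.6), and *C1qa* was second at each (11.1, 23.1 and 12.7). Within single mice *C3* exceeded *C1qa* in 7 of 8, 8 of 8 and 6 of 7 mice. The C1q chains, which the protein holds in equal numbers, differed in level: at day 7 *C1qb* was at 12.0 and *C1qc* at 7.86. *C1s1* (10.02 at day 7) and *Serping1* (9.97) were close, with 3 of 8 day 7 mice higher for *C1s1*. *C4b* was at 4.81, *C1ra* at 3.47 and *Cfi* at 0.536 at day 7. *Cfi* was last at every time point (0.0920 at baseline and 0.463 at day 14).

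Ratios between genes of 1 library do not depend on how libraries are scaled. For 6 ratios (*C1qa*/*C1qb*, *C1qc*/*C1qb*, *C1ra*/*C1s1*, *Serping1*/*C1s1*, *C3*/*C4b* and *C3*/*Cfi*) in the 3 comparisons, exact permutation tests gave 0 of 18 with an adjusted p of at most 0.05, 1 with an unadjusted p under 0.05 and a smallest adjusted p of 0.347. That smallest value was for *C3*/*Cfi* at day 7, whose log2 ratio was 1.49 lower than at baseline (exact two-sided permutation p = 0.0193 before adjustment). These tests do not show that the ratios were equal.

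To describe how the genes varied between mice of 1 time point, their log2 CPM was centred on each time point and correlated over the 23 mice. The 8 genes other than *Cfi* varied together: 28 of 36 pairs had a permutation p, adjusted over 36 pairs, of at most 0.05 for both Pearson's r and Spearman's rho. Those 28 are all the pairs without *Cfi*. The same test was not run on pairs of other genes, so the count is not shown to be particular to complement. Among the C1q chains r was 0.54 to 0.89 (rho 0.63 to 0.85), and among *C1ra*, *C1s1* and *Serping1* it was 0.79 to 0.89 (rho 0.76 to 0.90). *C3* and *C4b* had r = 0.87 (rho 0.88, permutation p adjusted 5.1e-05 for r). Leaving out the 2 mice farthest from the median of the first gene gave r from 0.65 to 0.88 for the C1q chains, 0.70 to 0.84 for the proteases and inhibitor and 0.83 for *C3* with *C4b*. The pairs with *Cfi* had r from -0.06 to 0.28 and none of the 8 passed (smallest permutation p adjusted 0.186). *Cfi* had at most 17 counts in every mouse but day 14 mouse 19.

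**Figure D4:**
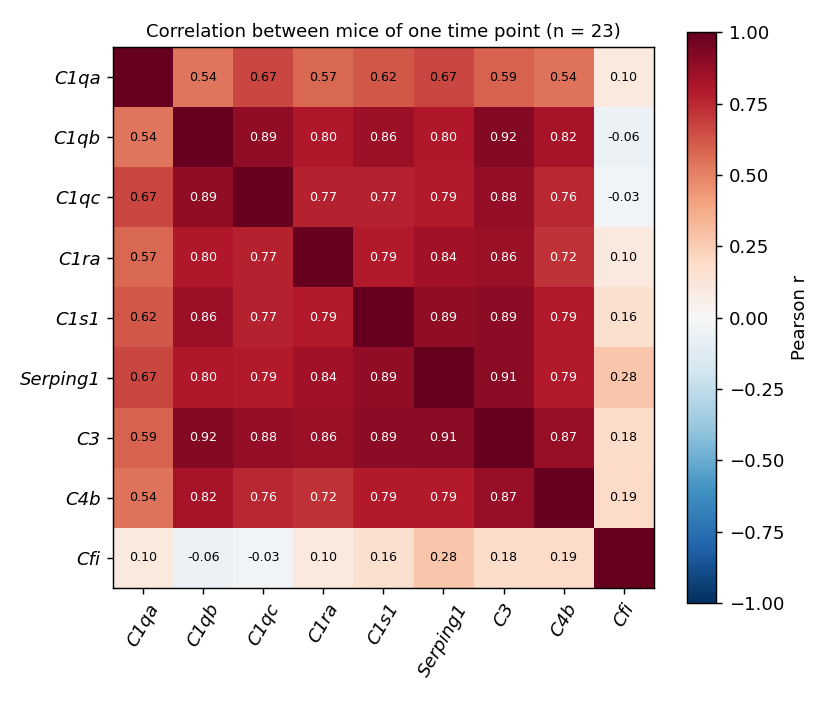
Pearson's r of log2 CPM, as deviations from the time point means, between each pair of the 9 genes over 23 mice (colour and printed value). *C3* with *C1qb* has the highest value (0.92) and the row of *Cfi* runs from -0.06 to 0.28.

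Genes outside the 9 with the most similar pattern were ranked by the same r, over 23 mice and 12186 genes, with no test. For the mean of the C1q chains these were *Lyz2* (0.94), *Vim* (vimentin, a filament protein of mesenchymal cells and leukocytes, 0.91), *Lgals3* (galectin-3, 0.91), *Inpp5d* (a phosphatase of blood cells, 0.91) and *H2-L* (an MHC class I gene, 0.90). For the mean of *C1ra*, *C1s1* and *Serping1* they were *Vim* (0.95), *Lyz2* (0.92), *Pltp* (phospholipid transfer protein, 0.92), *Ahnak* (0.92) and *C2* (the partner of C4 in the C3-cleaving enzyme, 0.91). All these values share the libraries and their composition.

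To compare the sexes, a sex term over all time points and the interaction of sex with time were tested. No complement gene among the 9 was called between females and males (0 of 9, also at an unadjusted p of 0.05, smallest edgeR adjusted p = 0.566), where 0.23% of genes were called in either direction and 9.0% had an unadjusted p under 0.05. The largest difference was that of *Cfi*, at a log2 fold change of 0.82 (SE 0.41) for females against males. In the interaction at day 7, all 9 estimates (female minus male) were below 0, from -0.09 (*C1qa*, SE 0.49) to -1.52 (*C4b*, SE 0.89), whereas 48.2% of the 12933 genes were below 0. None passed (0 of 9 also at an unadjusted p of 0.05, smallest edgeR adjusted p = 0.930), where 0.00773% of genes passed and 5.45% had an unadjusted p under 0.05. For *Serping1*, the day 7 difference from baseline was 0.42 (SE 0.25) in females and 1.09 (SE 0.25) in males, and the difference between these was -0.67 (SE 0.35). For *C3* it was 0.20 (SE 0.53) in females and 1.04 (SE 0.54) in males.

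Since the genes vary together between mice, 9 estimates of 1 sign are not 9 separate observations. At day 7 all 10 fibroblast markers (median -0.48, 2 with an unadjusted p under 0.05), all 6 mesothelial markers (median -1.59, 6 with an unadjusted p under 0.05) and 9 of 12 macrophage markers (median -0.36, 0 with an unadjusted p under 0.05) also had interaction estimates below 0. So did all 3 neutrophil markers tested in that fit (median -6.63, 2 with an unadjusted p under 0.05), whose summed normalized count was 135 in baseline mouse 4 and 3.02 to 14.7 in the other baseline mice. All 10 lymphocyte markers were above 0 (median 2.82, 0 with an unadjusted p under 0.05). The part of these cells was not tested. At day 14 the interaction estimates had both signs, from -0.40 to 0.90, and 0 of 9 passed (0 at an unadjusted p of 0.05 as well), where 0.0% of genes passed and 3.66% had an unadjusted p under 0.05. The value of 0.90 was that of *Cfi*, whose day 14 females included mouse 19.

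**Figure D5:**
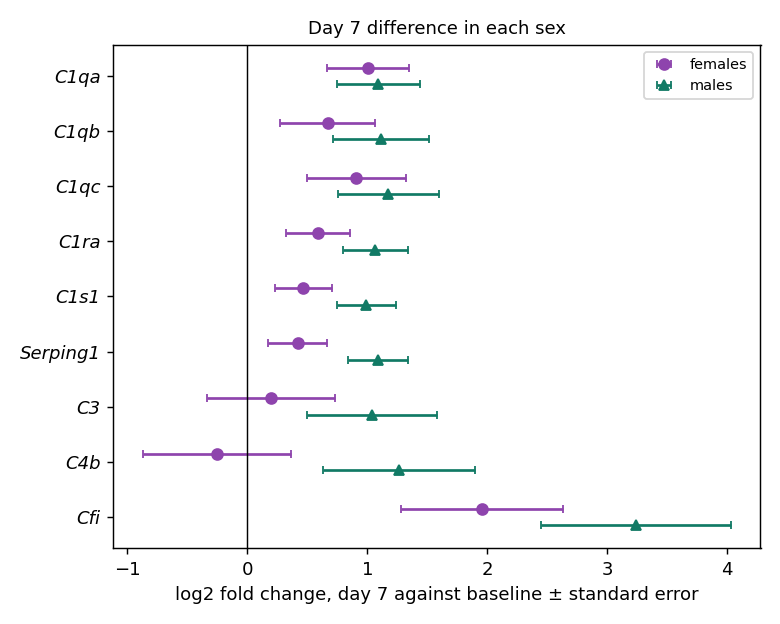
Log2 fold change of day 7 against baseline (x axis, with the standard error derived from the edgeR test) in females (circles) and males (triangles) for the 9 genes. The female value is the lower in each gene, with overlapping error bars in several, and no difference between the sexes passed the test.

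The rest of the pathway was read from 49 further complement genes, of which 48 were in the files and 22 had enough counts. At day 7 against baseline 2 of 22 rose, where 3.82% of all genes tested were called higher. Both are receptors on myeloid cells: *C3ar1*, the receptor of the C3a fragment (log2 fold change 1.06, SE 0.21, edgeR adjusted p = 8.4e-04), and *Itgam*, a chain of complement receptor 3 (0.84, SE 0.24, edgeR adjusted p = 0.0161). *Itgam* was not called at day 7 with only the mice compared, nor where at least 10 counts in every mouse were required. *C3ar1* had 8.57 to 18.2 normalized counts at baseline and 18.2 to 43.0 at day 7. *C3ar1* was called lower at day 14 than at day 7 (-0.92, edgeR adjusted p = 0.0237), where 0.172% of all genes tested were. That call was lost under DESeq2 and when day 7 mouse 14 or 15 or day 14 mouse 17, 22 or 24 was left out, and *C3ar1* was not tested where at least 10 counts in every mouse were required. None of the other genes was called lower at day 7, and *Vtn* (-0.50), *Cpn1* (-0.54) and *C1rl* (-0.29) passed on the adjusted p alone.

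No gene of the alternative pathway was called at day 7. *Cfb* (factor B) was at 1.16 (SE 0.63), *Cfd* (factor D, also an adipocyte product) at 0.66 (SE 0.90) and *Cfp* (properdin) at 0.65 (SE 0.33). *C2* was at 0.41 (SE 0.36). Among regulators, *Clu* (clusterin), the most abundant, was at -0.12 (SE 0.08). The membrane regulators *Cr1l* and *Cd59a* were at 0.13 (SE 0.08) and -0.11 (SE 0.10). At day 14 against baseline 1 of 22 was called higher, where 0.697% of all genes tested were. It was *Cd93* (a membrane protein of endothelial and myeloid cells once named a C1q receptor), at 0.63 (edgeR adjusted p = 0.0056), with 75.4 to 140 normalized counts at baseline and 159 to 194 at day 14. That call was lost without baseline mouse 6.

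*C7* was the one gene of the terminal pathway with enough counts. It did not pass the test at day 7 (0.57, SE 0.51) or day 14 (0.83), and it was lower in females than in males over all time points (log2 fold change -3.16, edgeR adjusted p = 5.6e-04). Females had 1.22 to 14.8 normalized counts (median 8.71, n = 11) and males 25.6 to 175 (median 39.9, n = 12).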

How the data were processed

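Per the labels, RNA of the pancreas head was depleted of ribosomal RNA, and stranded libraries were amplified for 9 cycles and sequenced as paired reads of 75 bases. The authors trimmed reads with Trim Galore and cutadapt, aligned them to mm10 with STAR 2.5.2a and counted uniquely mapped fragments with featureCounts; the strand setting and the annotation are not given in the sources used here. The deposited values were whole counts for 18512 gene symbols. Nothing says whether mice shared a cage or batch, and p-values measure the spread between mice. In the paper's mapping statistics, duplicate rates were higher in every baseline library than in every day 7 library. The share of tags in untranslated exons at transcript starts was lower in the day 14 libraries than in all others. Such differences follow time point, and the p-values do not cover them. The paper left out a further day 14 female for poor mapping. The floor of 3 counts and the intervals cover counting error only.

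The 9 genes, the gene lists, the motifs and the rule for named genes were chosen with earlier results of these data known. Genes named are the 9, other complement genes that were called or were the 2 most abundant of their list, the 3 most abundant markers of a list at most, and the 5 genes most correlated with each subgroup; *Cfp*, *Vtn*, *Cpn1* and *C1rl*, where they fall outside this rule, were named after their values were seen. The values of 1 other complement gene are not reported here.

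Counts were scaled with TMM factors and fitted with edgeR 4.0.16 (limma 3.58.1, R 4.3.3; glmQLFit with robust = TRUE, glmQLFTest, two-sided) on genes kept by filterByExpr: 12195 genes with time point and sex in 1 fit of all 23 mice, and 12933 genes with a coefficient for each sex and time point for the interaction. P-values were adjusted by Benjamini-Hochberg over all genes tested. The standard error of a log2 fold change is its size over the square root of the F statistic, so it restates the test. Log2 CPM used a prior count of 2, and ratios a pseudocount of 0.5 counts with exact two-sided permutation tests. Correlations used 100000 permutations within time points, whose smallest p is 1e-05. The code was tested on simulated data. Alternatives were DESeq2 1.42.0 and its size factors in edgeR, total count scaling with and without the 20 most abundant genes, no filter, at least 10 counts in every mouse, no fold change threshold, only the mice compared, no covariate, a pseudocount of 1 and leaving out each mouse. Leaving out the libraries with hepatocyte markers above 100, or lymphocyte markers above 500, was chosen after seeing the data. Python 3.11.15 with pandas 2.3.3, scipy 1.17.1 and matplotlib 3.10.9 was used.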

Additional observations from a re-analysis of the deposited data

Results flagged for a closer look

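In the 9 genes and the 6 ratios, 45 groups of mice were examined for a highest or lowest value that stood apart by Dixon's 95% criterion, which chance meets in about 1 in 20 groups, and 6 values met it. *C1qa* was at 221 normalized counts in day 14 mouse 23, where the next mouse was at 134. In the same mouse the log2 ratio of *C1qa* to *C1qb* was 2.10 (203 against 47 counts), and the next mouse was at 0.60. At baseline, mouse 1 had a log2 ratio of *C1qa* to *C1qb* of 2.12 (84 against 19 counts), and the next mouse was at 0.99. *Cfi* was at 39.7 in day 14 mouse 19, where the next mouse was at 6.54, and *Serping1* was highest in the same mouse, at 214, with the next at 153. That mouse also had the highest summed hepatocyte markers (5263), and the part of these transcripts was not tested. *Cfi* was at 0 in baseline mouse 5, and the next mouse had 1 count (1.40 normalized).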

How the results depend on the processing

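At day 7, 7 of the 9 genes were called in the main test, and leaving out 1 mouse at a time gave 5 to 7. No alternative ended the calls of *C1qa*, *C1qc*, *C1ra*, *C1s1* and *Serping1* at day 7, and *Cfi* kept its call in the 9 alternatives and 17 of 23 leave-one-out fits in which it passed the filter. *C1qb* was weaker with only the mice compared (0.90, edgeR adjusted p = 0.0672). Total count scaling moved the median of all genes to 0.48 at day 7, 0.22 at day 14 and -0.26 for day 14 against day 7, and *C3* then passed at day 7 (1.09, or 0.61 above that median).

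At day 14 against baseline, 1 gene (*Cfi*) was called, and 0 with no covariate and without the hepatocyte-marker or the lymphocyte-rich libraries. The count was also 0 under DESeq2, the minimum count and only the mice compared. In those fits *Cfi* had no adjusted p and could not be called, so they are no test of its call. Leaving out 1 mouse gave 0 to 1. *Cfi* lost its call in 12 of the 17 leave-one-out fits that kept it. For day 14 against day 7, where 0 were called, DESeq2 called 2, total count scaling 6 and the fit without the hepatocyte-marker libraries 1 (*Cfi*, -1.47); leaving out 1 mouse gave 0 to 1. The sign turned at day 14 against baseline for *C1qb* (-0.053) and *C1qc* (-0.045) without the hepatocyte-marker libraries and for *C3* (0.059) under total count scaling, all far from the threshold. Over the 11 alternatives, *C3* ranged there from -0.52 to 0.059, *C4b* from -1.09 to -0.36 and *C1ra* from 0.13 to 0.52. Leaving out 1 mouse gave -0.057 to 0.31 for *C1qa*, -0.0024 to 0.31 for *C1qb* and -0.34 to 0.13 for *C3* there. The r of *C1qb* with *Cfi* became 0.023 under total count scaling and 0.13 without 2 mice, and that of *C1qc* with *Cfi* 0.047 and 0.11.

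For the other complement genes, day 7 called 2, against 8 under total count scaling and 0 with the minimum count. It called 5 with no fold change threshold and 2 to 4 with 1 mouse left out (4 without baseline mouse 5). Another gene was also called under DESeq2 and without the hepatocyte-marker libraries, and a different one without the lymphocyte-rich libraries. With only the mice compared, *Itgam* lost its call and another gene gained one. Day 14 called 1, and 0 to 1 with 1 mouse left out (0 without baseline mouse 6). Day 14 against day 7 called 1, against 0 under DESeq2 and the minimum count, 2 under total count scaling, with only the mice compared and without either set of libraries, 3 with no fold change threshold, and 0 to 1 with 1 mouse left out (0 without day 7 mouse 14 or 15 or day 14 mouse 17, 22 or 24). The ratios had 0 tests past the threshold in every fit with 1 mouse left out. Their values there were -0.058 to 0.22, -0.36 to 0.051 and -0.40 to -0.081 for *C1qa*/*C1qb* (day 7 and day 14 against baseline, day 14 against day 7), -0.045 to 0.11 for *C1qc*/*C1qb* at day 14, -0.12 to 0.012 for *C1ra*/*C1s1* at day 14, -0.015 to 0.067 for *Serping1*/*C1s1* at day 7 and -0.052 to 0.46 for *C3*/*Cfi* at day 14 against day 7. The causes were not tested. No paired analysis was possible because each mouse has a number of its own that no other group shares. Depth limits *Cfi*, whose baseline counts are at or below the floor of 3, so its fold change has a wide interval.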
